A study of Mus musculus with 28 samples.

Results

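C/EBPα is a basic leucine zipper transcription factor that drives the myeloid programme, and when it is forced into B cell precursors they turn into macrophages. C10 is a mouse Pre-B cell line derived from HAFTL cells that carries a transgene in which rat C/EBPα is fused to the hormone binding domain of the estrogen receptor, so that β-estradiol moves a protein already made in the cytoplasm into the nucleus. B cell precursors depend on factors such as Pax5, Foxo1 and the E proteins, on IL-7 signals and on the Pre-B cell receptor, whereas macrophages depend on PU.1, C/EBP factors and the receptor for CSF-1.

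The comparison described here set 3 RNA-seq libraries of C10 cells at 1h (RNA_1h, replicates 1 to 3) against 3 libraries of the same line at 0h (RNA_0h, replicates 1 to 3). All 6 libraries carried the CEBPalpha-ER transgene. The cells at 1h had received β-estradiol, IL-3 and CSF-1 together after plating, and no library had received only 1 of the 3 agents, so the effects of C/EBPα, of the hormone, of the cytokines and of handling cannot be told apart. C10 is a single cultured line, and the paper's methods describe the 3 libraries of a time point as biological replicates. The genes described were those with a deposited TPM (transcript abundance relative to the whole library) that averaged 1 or more across the 6 libraries, leaving out symbols beginning Gm, Mir, Sno or Rn. There were 8327 genes such genes among the 55450 in the table and the 15988 that were fitted. The prefix rule left out 814, 18, 51 and 86 genes that passed the level rule, among them protein-coding genes such as the Rnf ubiquitin ligases and Rnase4. Nr4a3, with a mean deposited TPM of 1, was just inside the level rule, and Fbxo4, with 0.998, was just outside it.

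Levels are given as scaled TPM, the deposited TPM divided by a size factor for each library (median of ratios over the 12 RNA libraries of the series), and fold changes are on the scale log2(scaled TPM + 0.1), which understates the change of low genes. A level written with ± is the mean and SD of the 3 libraries of a time, and a value with SE in parentheses after levels is the log2 fold change of 1h over 0h. TPM keeps no read depth, so the depth behind each value is unknown, and the precision rests on 3 libraries a group. The size factors were 0.874 to 1.06 at 0h and 1.32 to 1.55 at 1h. The 2 most abundant genes, CT010467.1, annotated as rRNA, and AY036118, annotated as a long noncoding RNA, held 76.9 to 79.8% of the deposited TPM at 0h and 70.3 to 74.2% at 1h. Genome positions are those of the GENCODE M21 annotation on mm10. The kit named in the labels does not mark strand, so reads of a gene and of a gene that overlaps it on the opposite strand cannot be told apart.

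The labelled cell type held at both times. The summed level of 10 Pre-B markers (among them Cd79a, Vpreb1, Igll1, Pax5 and Ebf1) was 321 to 347 scaled TPM at 0h and 152 to 165 at 1h, and that of 9 macrophage markers (among them Csf1r, Itgam and Cybb) was 4.55 to 5.98 at 0h and 26.5 to 28.6 at 1h. Most of the latter sum was Cybb, at 2.88 ± 0.884 and 22.9 ± 1.7, while 6 of the 9 macrophage markers were below 1 in all 6 libraries and 2 of these were at 0. The cells at 1h thus still carried more Pre-B than macrophage marker RNA. Markers of T cells, erythroid cells, stroma and granulocytes summed to at most 0.485 in any of the 6 libraries. In bulk RNA, fewer cells of a type and less RNA per cell cannot be told apart. Over the 8327 genes, the log2 levels of 2 libraries correlated with r of 0.930 to 0.945 within 0h and 0.940 to 0.949 within 1h. Between the times, r was 0.908 for the 2 libraries numbered 3 and 0.865 to 0.875 for the other pairs.

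At 1h, 280 of the 8327 genes were called higher (3.36%) and 313 were called lower (3.76%), where a call needs an adjusted p under 0.05 (limma, two-sided, Benjamini-Hochberg over all genes fitted) and a fold change beyond 2. Among all 15988 genes fitted the shares were 3.88% higher (621) and 2.55% lower (408). All values at 1h exceeded all those at 0h for 1339 of the 8327 genes (16.1%), all were below them for 1842 (22.1%), and each of the 593 called genes was among these. Both directions had the same reach: 15 genes rose and 15 fell by more than 8-fold, and 67 rose and 62 fell by more than 4-fold. The median log2 fold change was -0.06 over the 8327 genes, 1.46 over those called higher and -1.44 over those called lower. Of the genes called higher, 95 had a mean below 1 scaled TPM at 0h, so that they entered the set through their level at 1h, and 100 of those called lower had a mean below 1 at 1h. For a gene that passed the level rule only through the time at which it is high, the adjusted p is no independent support for the change. Gpr84, Ncf1, Tlr2, Socs3 and Nr4a3 are among such risers below, and Pdgfb, Rag2 and Pou2f2 among such fallers.

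The balance of the directions depended on the scale. On TPM as deposited, where the median log2 fold change of the 8327 genes was 0.52, 1294 genes were called higher and 121 lower. With TPM rescaled without the 20 most abundant genes, where that median was 0.06, the counts were 322 and 237. With 1 library left out at a time, 150 to 242 genes were called higher and 179 to 260 lower, and with replicate 3 of both times left out, which list more genes above 0 than the others, limma called 0 each way, while 371 and 398 had an unadjusted p under 0.05 and a fold change beyond 2. The changes given below are therefore relative to the bulk of the genes. Counts of calls in the gene lists below stand beside 3.36% called higher and 3.76% called lower over all 8327 genes. The measured genes of a list are those among the 8327, so listed genes below the level rule are not counted. In a short list, 1 or 2 calls say little about the list.

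**Figure D1:**
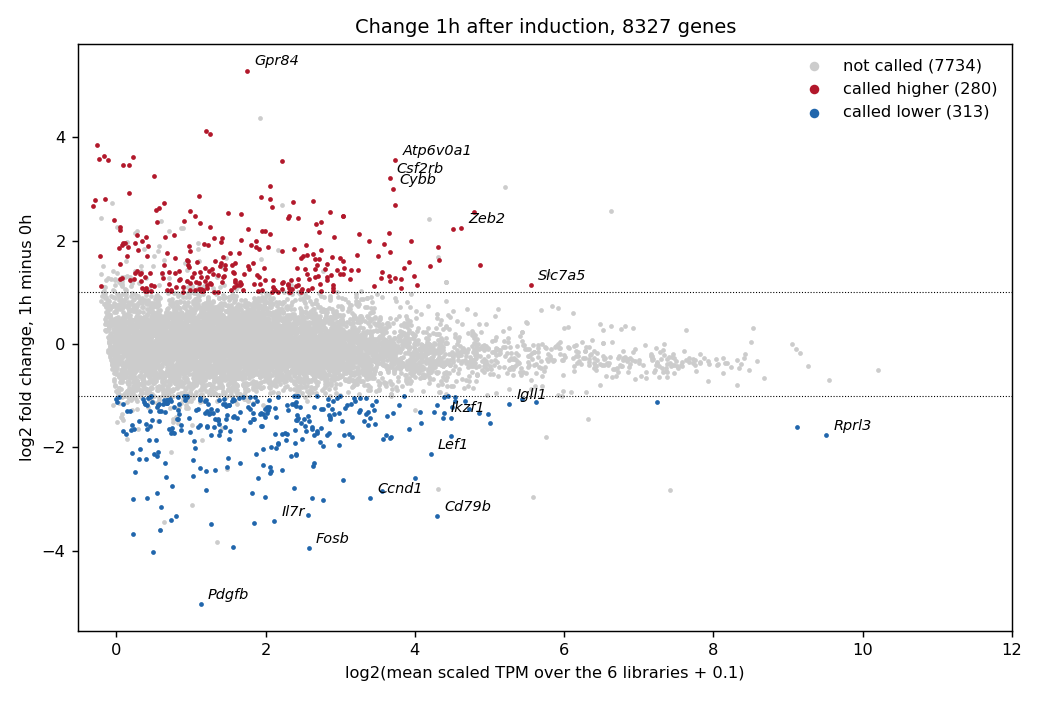
Change of each of the 8327 genes 1h after induction: the x axis is the log2 of the mean scaled TPM over the 6 libraries plus 0.1, the y axis the log2 fold change of 1h over 0h, and each point is 1 gene, red where called higher (280) and blue where called lower (313). Dotted lines mark 2-fold, 5 very abundant genes lie beyond the right edge, and called genes are found on both sides over the range of levels, with Gpr84 at 5.29 and Pdgfb at -5.03 as the extremes.

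The genes that rose most included receptors, signalling inhibitors and parts of the phagocyte machinery. Gpr84 (chr15:103308235-103310612), a G protein-coupled receptor for medium-chain fatty acids found on myeloid cells, was at 0, 0.0732 and 0.172 scaled TPM at 0h and 6.43, 6.67 and 6.22 at 1h, a rise of 5.29 ± 0.37 SE on the log2 scale (adjusted p = 0.000817). Csf2rb (chr15:78325752-78353847), the β chain shared by the receptors for IL-3, IL-5 and GM-CSF, was at 1.93, 1.93 and 3.48 scaled TPM at 0h and 21.1, 21.1 and 25.8 at 1h. Csf2rb rose by 3.21 ± 0.24 (SE, log2 scale, adjusted p = 0.00101). The groups were far apart for both genes, since the lowest library at 1h exceeded the highest at 0h several times over.

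Cybb (chrX:9435252-9487771), the catalytic subunit of the phagocyte NADPH oxidase, was at 2.81, 2.04 and 3.8 scaled TPM at 0h and 22.1, 24.9 and 21.8 at 1h. Cybb rose by 2.99 ± 0.22 (SE, log2 scale, adjusted p = 0.00095). Atp6v0a1 (chr11:101009452-101063719), a membrane subunit of the proton pump that acidifies endosomes and lysosomes, went from 2.01 ± 0.394 to 24.4 ± 1.68 (n = 3, 3.56 ± 0.16 SE, adjusted p = 0.000623). It was the 1 gene called among 18 vacuolar ATPase genes, a list made after the values were seen, with a median log2 fold change of 0.21. Gas7, a cytoskeletal adaptor, rose from 0.174 ± 0.0773 to 4.41 ± 0.626, and Rin2, an exchange factor for the endosomal GTPase Rab5, from 0.184 ± 0.148 to 2.45 ± 0.706. Other genes of the 15 with the largest rise served lipid and ion handling: Dgat2, which makes triglyceride, was at 0.226, 0 and 0.0916 scaled TPM at 0h and 2.19, 1.91 and 1.73 at 1h, and Slc8b1, the sodium and calcium exchanger of mitochondria, at 0.471, 0.794 and 0.687 scaled TPM at 0h and 8.12, 7.36 and 10.0 at 1h. Ptgir, the prostacyclin receptor, rose from 0.814 ± 0.26 to 7.32 ± 0.393.

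The remaining genes of the 15 were Eid3, Rasl10a, Ier3, Ang, Socs3 and Cpeb2, with log2 fold changes of 2.92 to 4.11. Eid3 lies on the same strand within Txnrd1, which rose from 7.92 ± 0.702 to 37.5 ± 3.21 scaled TPM, and the value of Eid3 (0.196 ± 0.17 to 4.22 ± 0.286) is uncertain for that reason. Ang shares its span with Rnase4 on the same strand and is uncertain likewise, and Rasl10a overlaps Gas2l1, also called higher, on the opposite strand.

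The genes that fell most included genes of B cell development and of growth signalling. Pdgfb (chr15:79995874-80014977), a growth factor chain, was at 2.89, 4.38 and 5.19 scaled TPM at 0h and 0, 0.0396 and 0.0454 at 1h. Pdgfb fell by 5.03 ± 0.32 (SE, log2 scale, adjusted p = 0.00071). Cd79b (chr11:106311341-106314762), the β chain of the signalling unit of the B cell receptor, was at 34.7, 35.9 and 36.6 scaled TPM at 0h and 4.05, 2.79 and 3.63 at 1h. Cd79b fell by 3.33 ± 0.15 (SE, log2 scale, adjusted p = 0.000623). Each library at 1h was far below every library at 0h in both genes.

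Il7r (chr15:9505788-9530176), the receptor chain for the cytokine that B cell precursors need to grow, was at 7.66, 7.65 and 8.01 scaled TPM at 0h and 0.861, 0.963 and 0.28 at 1h. Il7r fell by 3.43 ± 0.39 (SE, log2 scale, adjusted p = 0.0038). Rag2, a subunit of the recombinase that joins antibody gene segments, was at 3.04, 1.71 and 1.42 scaled TPM at 0h and 0.123, 0 and 0.0833 at 1h (-3.68 ± 0.43 SE, adjusted p = 0.00412), and its partner Rag1, which did not pass the level rule, was at 1.77, 1.76 and 1.72 scaled TPM at 0h and 0.0453, 0.0396 and 0.0303 at 1h. Among the transcriptional regulators of the 15, Cbfa2t3, a corepressor of the ETO family, fell from 2.56 ± 0.246 to 0.063 ± 0.0153, Sox4 from 3.07 ± 0.338 to 0.214 ± 0.0318, Gfi1b from 4.32 ± 1.07 to 0.291 ± 0.0297 and Id3, an inhibitor of E proteins, from 2.64 ± 1.12 to 0.172 ± 0.23. Lgr5, a receptor for R-spondins, fell from 6.49 ± 1.15 to 0.493 ± 0.0444. Gem, Fosb, Dusp4, Dusp2, Rab3a and the pseudogene Scp2-ps2 completed the 15, with log2 fold changes of -3.94 to -3.02, and the reads of Scp2-ps2 may be shared with its parent gene.

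**Figure D2:**
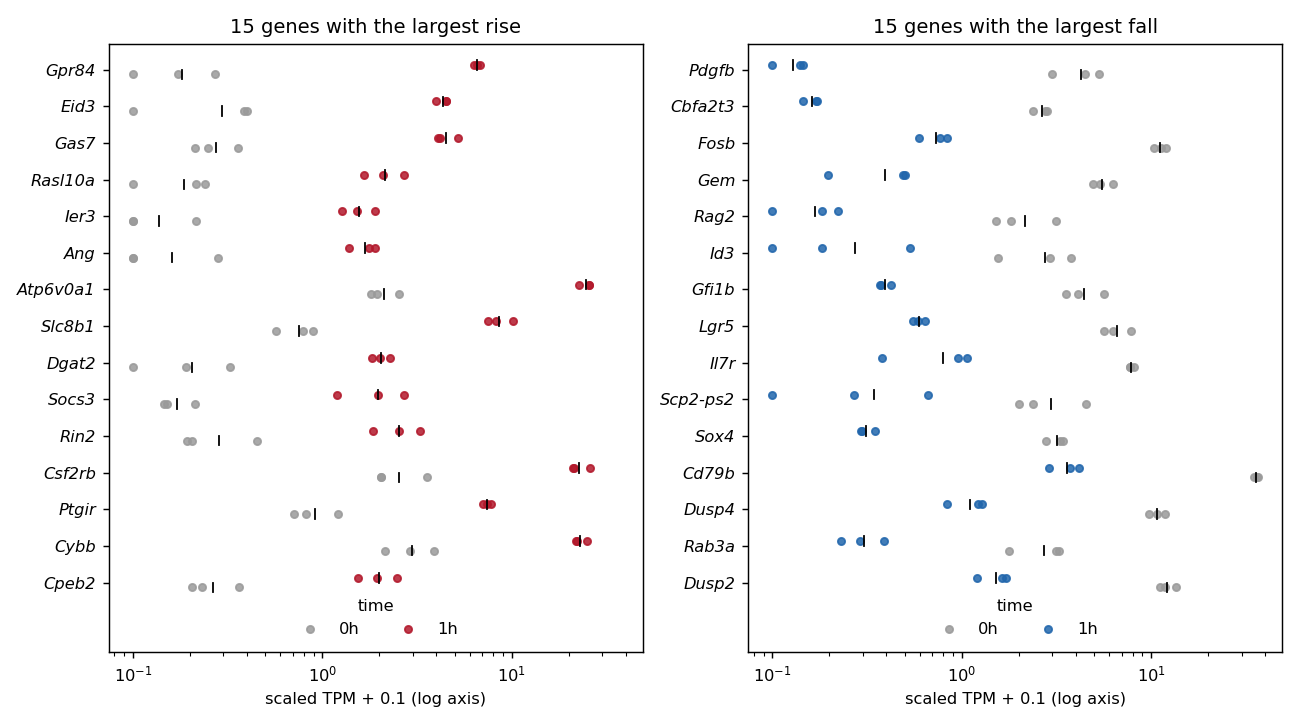
Levels of the 15 genes with the largest rise (left) and the 15 with the largest fall (right), plotted as scaled TPM + 0.1 on a log axis: grey points are the 3 libraries at 0h, coloured points the 3 at 1h, and short bars the means. In each of the 30 genes the 3 libraries at 1h lie to 1 side of the 3 at 0h, and 1 or more libraries of 10 genes sit at the left edge, where the listed value is 0.

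Abundant genes were called too. The 5 genes called higher with the highest level were Vaultrc5, a vault RNA that ranged from 32.7 to 73.4 among the libraries at 1h, and Zeb2, Txnrd1, Mid1 and Slc7a5. Slc7a5, which imports large neutral amino acids, was at 28.5, 27 and 31.9 scaled TPM at 0h and 62.7, 59.7 and 70.7 at 1h. Slc7a5 rose by 1.14 ± 0.11 (SE, log2 scale, adjusted p = 0.00233). The 5 called lower with the highest level were 3 short RNAs made by RNA polymerase III, namely Rprl3 (1130.0 ± 185 to 330.0 ± 25.1), Rpph1 (846 ± 276 to 269 ± 38.7) and Bc1 (207 ± 10.7 to 95.7 ± 19.4), together with Mtdh and Ighm. Rprl3 and Rpph1 are copies of the RNA of ribonuclease P and may share reads.

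B-lineage transcription factors and their regulators were called lower more often than higher. The list holds factors of the Pre-B state and also Id3, an inhibitor of E proteins. Of 25 measured, 13 were called lower and 1 higher, and the median log2 fold change was -1.18 against -0.06 over all 8327 genes. On TPM as deposited, 9 were still called lower and the median was -0.58 against 0.52. Foxo1, which activates Il7r and the Rag genes, was at 3.91, 3.01 and 3.21 scaled TPM at 0h and 0.505, 0.541 and 0.432 at 1h. Foxo1 fell by 2.55 ± 0.2 (SE, log2 scale, adjusted p = 0.0011). Pou2f2, the octamer factor Oct-2, fell from 1.97 ± 0.267 to 0.162 ± 0.0605 (-3 ± 0.28 SE, adjusted p = 0.00193). Pax5, the factor that commits cells to the B lineage, was at 16, 18.3 and 19.3 scaled TPM at 0h and 6.79, 6.61 and 6.67 at 1h (-1.4 ± 0.11 SE, adjusted p = 0.00124).

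The next 6 members were chosen after their values were seen. Ikzf1 (Ikaros) was at 32, 27.8 and 31 scaled TPM at 0h and 11.9, 10.5 and 11.1 at 1h, Lef1 at 26.6, 33.1 and 30.2 scaled TPM at 0h and 5.16, 6.86 and 8.68 at 1h, and Pou2af1, the coactivator of octamer factors, at 29.3, 31.2 and 29.5 scaled TPM at 0h and 11, 12.4 and 12.2 at 1h. Tcf3, which encodes the E proteins E12 and E47, fell from 19.1 ± 2.29 to 8.41 ± 1.37, Bach2 from 4.84 ± 1.02 to 1.5 ± 0.545 and Erg from 3.13 ± 1.12 to 0.793 ± 0.352. Hdac7, a class IIa histone deacetylase with a role as a B-lineage corepressor, was at 6.63, 9.2 and 9.83 scaled TPM at 0h and 1.79, 1.93 and 1.85 at 1h. Hdac7 fell by 2.13 ± 0.18 (SE, log2 scale, adjusted p = 0.00137). Ets1 was the 1 member called higher, at 3.15, 3.07 and 2.19 scaled TPM at 0h and 9.71, 10.3 and 8.44 at 1h. Ets1 rose by 1.74 ± 0.18 (SE, log2 scale, adjusted p = 0.00279). The antisense transcripts Gm20402 at Foxo1 and Gm27240 at Ets1 overlap those genes and moved in the same direction.

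The Pre-B cell receptor and its surface partners gave fewer calls. Of 24 members, 8 were called lower (Il7r, Cd79b, Cd22, Cd72, Vpreb1, Igll1, Blnk and Ighm) and 1 higher, with a median of -0.85. On TPM as deposited, 4 were called lower and 3 higher, with a median of -0.26. Cd79a, the partner chain of Cd79b, was at 45.5, 51.7 and 58.3 scaled TPM at 0h and 33, 35.2 and 38.9 at 1h (-0.53 ± 0.13 SE, adjusted p = 0.0449), under the 2-fold limit, and its log2 fold change was 0.07 on TPM as deposited. Vpreb1, a part of the surrogate light chain, was at 42.2, 49.5 and 43.8 scaled TPM at 0h and 17.9, 16 and 18.7 at 1h (-1.36 ± 0.11 SE, adjusted p = 0.00136), and Igll1, its partner, fell from 53.2 ± 4.45 to 23.6 ± 2.14 (-1.17 ± 0.11 SE). Vpreb3, at 75.1, 79.1 and 87.5 scaled TPM at 0h and 40.1, 37.2 and 44.2 at 1h, missed the 2-fold limit at -0.99, and Vpreb2, at 2.23, 2.95 and 4.2 scaled TPM at 0h and 1.71, 1.29 and 1.77 at 1h, had an adjusted p of 0.0796.

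Cd22, an inhibitory coreceptor, fell from 10.8 ± 2.84 to 2.69 ± 0.741, Cd72 from 13.2 ± 3.27 to 3.84 ± 0.611 and the adaptor Blnk from 6.96 ± 1.11 to 3.03 ± 0.294. Lyn, a SRC family kinase used by B cells and myeloid cells alike, was the member called higher, at 6.8, 7.61 and 7.98 scaled TPM at 0h and 21.8, 22.8 and 23.2 at 1h. Lyn rose by 1.59 ± 0.11 (SE, log2 scale, adjusted p = 0.000763). Of 6 measured V(D)J recombination genes, Rag2 was called lower and Dclre1c, which encodes the nuclease Artemis, was called higher, from 0.99 ± 0.521 to 4.17 ± 1.03 (2.05 ± 0.37 SE, adjusted p = 0.0203).

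Myeloid transcription factors were split. Of 15 measured, 6 were called higher (Gfi1, Zeb2, Nfe2, Runx1, Spi1 and Hlx) and 6 lower (Cbfa2t3, Gfi1b, Irf5, Irf8, Hhex and Bhlhe40), with a median of -0.29 that was 0.26 on TPM as deposited. Zeb2 (chr2:44983632-45117395), a zinc finger repressor, was at 10.1, 8.68 and 7.11 scaled TPM at 0h and 40.1, 39.8 and 41.7 at 1h. Zeb2 rose by 2.23 ± 0.14 (SE, log2 scale, adjusted p = 0.000725). Spi1, which encodes PU.1, was at 8.39, 7.7 and 8.19 scaled TPM at 0h and 19.8, 15.8 and 23.9 at 1h (1.26 ± 0.16 SE, adjusted p = 0.00625), and Runx1 went from 7.13 ± 1.01 to 17.7 ± 2.04 (1.31 ± 0.15 SE). The related repressors Gfi1 and Gfi1b moved in opposite directions, Gfi1 from 0.526 ± 0.181 to 3.41 ± 1.05 (2.48 ± 0.32 SE, adjusted p = 0.00625) and Gfi1b from 4.32 ± 1.07 to 0.291 ± 0.0297 (-3.47 ± 0.23 SE, adjusted p = 0.000763).

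Irf8 and Irf5, interferon regulatory factors that serve macrophages too, fell: Irf8 was at 18.4, 18.5 and 22.2 scaled TPM at 0h and 6.48, 4.11 and 6.09 at 1h (-1.83 ± 0.19 SE, adjusted p = 0.00308) and Irf5 at 3.05, 4.05 and 5.35 scaled TPM at 0h and 0.673, 0.58 and 0.75 at 1h. Irf5 fell by 2.44 ± 0.24 (SE, log2 scale, adjusted p = 0.00236). Of the 6 C/EBP genes in the set none was called, while 2 were called higher on TPM as deposited and 1 with the trend over transcript length and GC content taken out. The Cebpa row can hold reads of the rat transgene as well as of the mouse gene, and the paper reports that the mouse gene was not expressed at any time point. It was at 18.9, 22.4 and 27.4 scaled TPM at 0h and 23, 22.8 and 29.3 at 1h (0.14 ± 0.17 SE, adjusted p = 0.648). The paper, on TPM without this scaling, describes an early rise of the transgene RNA at 1h. Cebpb rose in all 3 libraries, from 2.81 ± 0.0357 to 4.95 ± 0.687 (0.79 ± 0.15 SE, adjusted p = 0.0247), which is under the 2-fold limit. Cebpg was at 3.29 ± 0.549 and 4.99 ± 0.785 (adjusted p = 0.0977), Cebpz at 5.61 ± 0.21 and 5.08 ± 0.309 (adjusted p = 0.49), and Cebpd, below the level rule, at 0.0445 and 0.327 (adjusted p = 0.08). Ddit3 has 2 gene models: ENSMUSG00000025408 was at 4.97 ± 0.625 and 4.68 ± 1.15, and the overlapping ENSMUSG00000116429 is listed at 0 in all libraries but 1 at 1h.

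The RefSeq promoter windows of 5 called genes, picked because they hold the C/EBP sequence TTGCNNAA (searched on both strands), are printed. Of these, 3 are of genes that rose and 2 of genes that fell. Each runs from 250 bases before to 50 bases after an annotated start site (GRCm38.p6, sequences from RefSeq), 5′ to 3′ on the strand of the gene, with the match in capitals. They were chosen after the values of the genes were seen. C3 (complement component 3) lies at chr17:57228087-57228386, Gfi1 at chr5:107725756-107726055, Zeb2 at chr2:45117393-45117692, Il7r at chr15:9529827-9530126 and Pou2af1 at chr9:51213440-51213739, the last on the plus strand and the others on the minus strand.
C3: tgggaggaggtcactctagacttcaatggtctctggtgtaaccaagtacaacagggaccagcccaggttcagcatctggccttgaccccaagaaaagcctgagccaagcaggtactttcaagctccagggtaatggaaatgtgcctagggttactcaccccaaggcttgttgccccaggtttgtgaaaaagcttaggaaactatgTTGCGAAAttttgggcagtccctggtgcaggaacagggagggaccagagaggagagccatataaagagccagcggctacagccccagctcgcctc
Gfi1: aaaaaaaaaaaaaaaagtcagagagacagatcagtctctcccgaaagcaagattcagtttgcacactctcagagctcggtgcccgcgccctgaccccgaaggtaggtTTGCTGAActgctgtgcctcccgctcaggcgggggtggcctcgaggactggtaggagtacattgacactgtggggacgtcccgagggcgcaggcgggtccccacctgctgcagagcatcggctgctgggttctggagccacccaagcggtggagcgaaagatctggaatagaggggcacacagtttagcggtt
Zeb2: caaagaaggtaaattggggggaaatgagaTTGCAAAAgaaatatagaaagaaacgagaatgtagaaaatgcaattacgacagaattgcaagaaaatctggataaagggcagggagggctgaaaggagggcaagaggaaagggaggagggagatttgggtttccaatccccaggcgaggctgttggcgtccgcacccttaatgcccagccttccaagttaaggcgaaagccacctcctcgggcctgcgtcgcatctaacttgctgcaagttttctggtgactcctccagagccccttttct
Il7r: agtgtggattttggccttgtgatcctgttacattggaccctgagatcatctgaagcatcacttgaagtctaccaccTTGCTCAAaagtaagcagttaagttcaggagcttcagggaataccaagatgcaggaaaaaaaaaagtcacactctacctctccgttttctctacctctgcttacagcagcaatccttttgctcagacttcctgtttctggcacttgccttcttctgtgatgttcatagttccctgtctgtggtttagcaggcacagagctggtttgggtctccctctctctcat
Pou2af1: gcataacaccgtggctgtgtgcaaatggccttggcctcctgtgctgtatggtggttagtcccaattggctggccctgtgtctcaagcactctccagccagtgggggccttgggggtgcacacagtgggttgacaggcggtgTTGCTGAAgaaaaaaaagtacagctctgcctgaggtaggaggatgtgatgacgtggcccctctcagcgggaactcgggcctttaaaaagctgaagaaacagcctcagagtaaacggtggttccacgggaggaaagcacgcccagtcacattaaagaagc
The first match begins 45 bases before the start site in C3, 143 in Gfi1, 221 in Zeb2, 174 in Il7r and 109 in Pou2af1. Gfi1 has 2 windows and Zeb2 has 4, of which 1 each holds a match. C3 itself rose from 0.119 ± 0.128 to 1.32 ± 0.622 scaled TPM (2.79 ± 0.54 SE, adjusted p = 0.0254). These letters occur in 10.8% of the 32851 promoter windows in the table and in 8.11% of the 8374 windows of genes in the set. Most windows hold no match, so the 5 printed are not typical, and a match alone singles out no gene. Windows were given for 213 of the 280 genes called higher (76.1%) and 235 of the 313 called lower (75.1%), under the 80% needed to compare shares between the groups, so a comparison of motif shares over the called genes is void.

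Genes of the mature macrophage gave some calls. Of 19 measured surface and effector genes, 6 were called higher (Csf2rb, Cybb, Ncf1, Tlr2, Fcgr2b and Ctsc) and 1 lower (Ptgs1). The median was -0.33, and 0.23 on TPM as deposited. Ncf1, the cytosolic organizer subunit of the NADPH oxidase, was at 0.358, 0.428 and 0.469 scaled TPM at 0h and 4.08, 3.48 and 3.49 at 1h. Ncf1 rose by 2.87 ± 0.19 (SE, log2 scale, adjusted p = 0.000763). Tlr2, a receptor for bacterial lipoproteins, was at 0.245, 0.293 and 0.412 scaled TPM at 0h and 2.48, 2.43 and 2.2 at 1h (2.58 ± 0.24 SE, adjusted p = 0.00174), and Ctsc, a protease that activates granule enzymes, at 7.98, 8.33 and 10.9 scaled TPM at 0h and 22.3, 23.6 and 21.9 at 1h. Ctsc rose by 1.32 ± 0.14 (SE, log2 scale, adjusted p = 0.00345). 

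Of the 7 measured subunits and GTPases of the oxidase, a list made after the values were seen, Cybb and Ncf1 were called and the median was 0.13. Ptgs1, the constitutive cyclooxygenase, fell from 6.28 ± 0.748 to 0.978 ± 0.32 (-2.6 ± 0.24 SE, adjusted p = 0.0018), whereas the prostanoid receptors Ptgir and Ptger2 and the reductase Ptgr1 rose. Some genes that the paper ties to macrophages stayed below the level rule and were not called. Csf1r, the receptor for CSF-1, was at 0.132, 0.449 and 0.298 scaled TPM at 0h and 0.252, 0.158 and 0.674 at 1h (adjusted p = 0.877). Fcgr1 was at 0.0566, 0.0522 and 0.0687 scaled TPM at 0h and 0.149, 0.178 and 0.0454 at 1h (adjusted p = 0.538). Gbp9 was at 0.141, 0.282 and 0.355 scaled TPM at 0h and 0.589, 0.139 and 0.28 at 1h (adjusted p = 0.834). The macrophage marker Cd14, also below the level rule, was called higher and is described under the other observations. Mmp8 is listed at 0 in the 3 libraries at 0h and at 0.201, 0.178 and 0.212 at 1h, and was called higher (adjusted p = 0.0463). It passed the filter of the fit only through its level at 1h, so the call is no independent support.

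Some genes that act in cytokine signalling were called higher, and which agent raised them was not tested. Of 13 measured genes of JAK-STAT feedback and targets, 4 were called higher and none lower, with a median of 0.34. Socs2 and Socs3, which limit cytokine receptor signalling, were at 0.566, 2.58 and 1.13 scaled TPM at 0h and 7.71, 8.08 and 10.2 at 1h for Socs2 (2.74 ± 0.47 SE, adjusted p = 0.017) and at 0.113, 0.0522 and 0.0458 scaled TPM at 0h and 1.09, 2.61 and 1.87 at 1h for Socs3 (3.46 ± 0.38 SE, adjusted p = 0.00359). Stat3 was at 3.74, 4.65 and 5.37 scaled TPM at 0h and 21.8, 19.3 and 20.2 at 1h. Stat3 rose by 2.15 ± 0.15 (SE, log2 scale, adjusted p = 0.000901).

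Of 11 cytokines and chemokines, 4 were called higher and 2 lower. Ccl3 was at 2.38, 0.732 and 1.8 scaled TPM at 0h and 10.3, 11.5 and 10.2 at 1h (2.77 ± 0.38 SE, adjusted p = 0.00789), Csf1, the growth factor of macrophages, went from 0.903 ± 0.258 to 3.6 ± 0.471 (1.91 ± 0.24 SE, adjusted p = 0.00557), and Ccl9 and Osm rose as well. Clcf1 fell from 2.46 ± 0.912 to 0.703 ± 0.155 (-1.62 ± 0.33 SE, adjusted p = 0.0293) and overlaps AC109138.7 on the same strand, and Il16 fell from 5.64 ± 0.39 to 2.1 ± 0.434 (-1.4 ± 0.18 SE). Ccl6, below the level rule, was at 0.104, 0 and 0.172 scaled TPM at 0h and 0.136, 0.323 and 0.295 at 1h (adjusted p = 0.279).

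Cytokine receptors moved both ways, in a list made after the values were seen. Of 24 measured, Csf2rb, Il6ra and Il17ra were called higher and Il7r, Il21r, Il4ra and the TNF receptor family members Tnfrsf13c (the BAFF receptor) and Tnfrsf19 were called lower, with a median of -0.22. Il6ra was at 0.66, 0.648 and 0.881 scaled TPM at 0h and 4.78, 4.67 and 4.63 at 1h (2.54 ± 0.18 SE, adjusted p = 0.000817), and Il21r at 2.06, 2.49 and 2.23 scaled TPM at 0h and 0.194, 0.178 and 0.227 at 1h. Il21r fell by 2.98 ± 0.22 (SE, log2 scale, adjusted p = 0.000977).

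The classical immediate early genes, which growth factors induce within minutes in many cells, were called lower more often than higher. Of 18 measured, 6 were called lower and 3 higher, and the median was -0.62. On TPM as deposited 3 were called lower and 4 higher, with a median of -0.03, and with the trend over transcript length and GC content taken out 3 were called each way. Fosb was at 11.1, 10.2 and 11.9 scaled TPM at 0h and 0.498, 0.666 and 0.734 at 1h (-3.94 ± 0.18 SE, adjusted p = 0.000623), and Fos at 11, 11 and 10.2 scaled TPM at 0h and 1, 1.34 and 1.56 at 1h. Fos fell by 2.97 ± 0.18 (SE, log2 scale, adjusted p = 0.000681). Ier5 fell from 6.95 ± 1.1 to 1.79 ± 0.479 and Egr2, a call lost in 12 of 18 alternative settings, from 1.86 ± 0.646 to 0.682 ± 0.174. The orphan nuclear receptors went the other way, with Nr4a1 at 1.01, 1.2 and 1.74 scaled TPM at 0h and 5.74, 6.09 and 6.84 at 1h (2.19 ± 0.22 SE, adjusted p = 0.00233) and Nr4a3 going from 0.134 ± 0.0966 to 1.28 ± 0.0418 (2.66 ± 0.39 SE, adjusted p = 0.00969). Ier3 was the other gene called higher.

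Some feedback inhibitors of MAP kinases fell as well. Of 10 measured, Dusp4, Dusp2 and Dusp7 were called lower and none higher, with a median of -0.56 that was 0.03 on TPM as deposited. Dusp4 was at 9.67, 11.8 and 10.6 scaled TPM at 0h and 0.738, 1.17 and 1.12 at 1h (-3.3 ± 0.2 SE, adjusted p = 0.000681) and Dusp2 at 11, 11.8 and 13.5 scaled TPM at 0h and 1.53, 1.1 and 1.62 at 1h. Dusp2 fell by 3.02 ± 0.18 (SE, log2 scale, adjusted p = 0.000681). NF-kB factors and feedback genes gave 1 call among 12, Nfkbiz, which rose from 0.66 ± 0.14 to 1.66 ± 0.14 (1.23 ± 0.22 SE, adjusted p = 0.0204), and the median was 0.11.

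Among KLF factors, of which Klf2 keeps lymphocytes quiescent, 3 of 9 were called higher and none lower (median 0.78): Klf13 was at 4.09, 4.58 and 4.5 scaled TPM at 0h and 11, 11.2 and 11.9 at 1h (1.35 ± 0.11 SE, adjusted p = 0.00137), and Klf2 and Klf7 rose by 1.34 and 1.5 on the log2 scale. Of 8 circadian genes, Cry2 was called higher and Per1 and Bhlhe40 lower. Hoxb8, a homeobox factor of blood progenitors, was at 21, 18.1 and 22.9 scaled TPM at 0h and 2.25, 3.07 and 3.06 at 1h (-2.85 ± 0.17 SE, adjusted p = 0.000681). The neighbouring Hoxb7 and Hoxb6 were also called lower. That made 3 of the 3 HOX genes in the set, where 6 were fitted, in a list chosen after the values were seen. The call of Hoxb6 was lost in 9 of 18 alternative settings and that of Hoxb7 in 3. Of 145 Zfp genes measured, 2 were called higher and 1 lower, under the 3.36% and 3.76% of all 8327 genes. On TPM as deposited the counts were 30 and 1, where 1294 and 121 of all 8327 genes were called. The gene that fell, Zfp36l2, an RNA binding protein that promotes mRNA decay, was at 26.4, 25.4 and 30.2 scaled TPM at 0h and 4.21, 4 and 5.09 at 1h. Zfp36l2 fell by 2.6 ± 0.14 (SE, log2 scale, adjusted p = 0.000635).

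**Figure D3:**
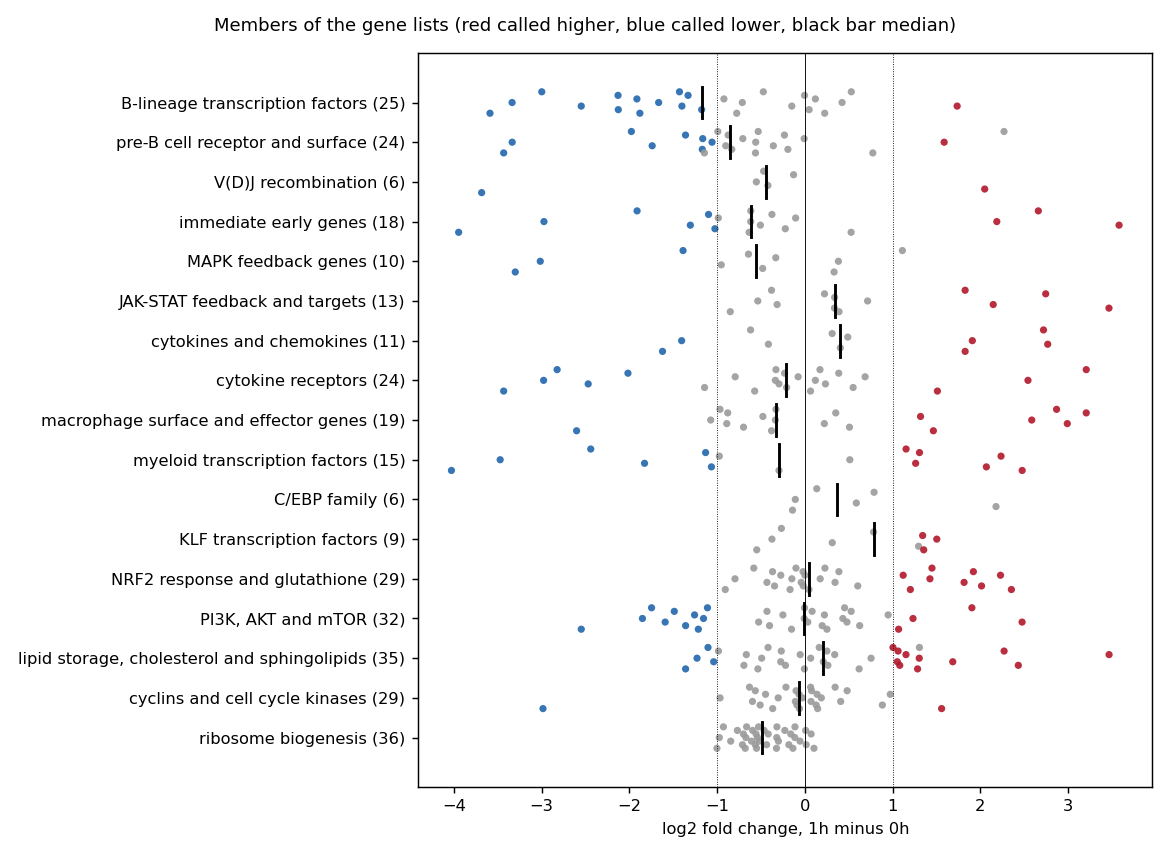
Log2 fold change of 1h over 0h for the members of 17 gene lists, with the number measured after each name: each point is 1 gene (red called higher, blue called lower, grey not called), the black bar is the median of the list and dotted lines mark 2-fold. The B-lineage factors have their median at -1.18 with 13 genes called lower, while the myeloid factors have 6 called in each direction.

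Genes of the defence against oxidative stress were among the risers, in a list assembled after the values were seen. Of 29 measured genes of the NRF2 response and of glutathione metabolism, 9 were called higher and none lower, with a median of 0.05. Nfe2l2, which encodes NRF2 itself, was at 3.04, 2.53 and 3.06 scaled TPM at 0h and 10.8, 10.9 and 9.34 at 1h (1.81 ± 0.14 SE, adjusted p = 0.00105), and Mafg, a small MAF partner of it, went from 2.06 ± 0.425 to 11.1 ± 3.35 (2.35 ± 0.26 SE). Txnrd1, the cytosolic thioredoxin reductase, was at 8.71, 7.37 and 7.68 scaled TPM at 0h and 40.2, 38.4 and 34 at 1h (2.23 ± 0.12 SE, adjusted p = 0.000635), and Hmox1, which degrades heme, at 1.18, 1.16 and 1.17 scaled TPM at 0h and 5.23, 4.77 and 5.07 at 1h. Hmox1 rose by 2.01 ± 0.14 (SE, log2 scale, adjusted p = 0.000817).

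Gclc and Gclm, the 2 subunits of the enzyme that starts glutathione synthesis, rose from 4.7 ± 0.604 to 12.7 ± 0.516 and from 3.3 ± 0.933 to 7.09 ± 0.336, and G6pdx, which supplies NADPH, from 3.36 ± 1.26 to 9.05 ± 1.8. Of 23 heat shock and stress genes, Gadd45a, Hmox1 and Trib1 were called higher and none lower (median -0.07). Gadd45a was at 1.58, 2.21 and 3.33 scaled TPM at 0h and 10.9, 10.3 and 10.6 at 1h (2.17 ± 0.25 SE, adjusted p = 0.00409), and Trib1 went from 3.1 ± 0.202 to 9.87 ± 0.648.

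Genes of phosphoinositide 3-kinase signalling were called lower more often than higher. Of 32 measured in a list made after the values were seen, 10 were called lower and 4 higher, with a median of -0.01. On TPM as deposited the order turned, with 4 called lower and 9 higher and a median of 0.56. Mtor was at 8.18, 8.55 and 8.94 scaled TPM at 0h and 2.67, 2.55 and 3.11 at 1h (-1.59 ± 0.13 SE, adjusted p = 0.00137), and the lower genes also included the catalytic subunits Pik3cd and Pik3cg that blood cells use, Pik3c2b, the inhibitor Pik3ip1, Ddit4 and Sgk1. Gab2, an adaptor of cytokine receptors, rose from 0.748 ± 0.258 to 3 ± 0.55 (1.9 ± 0.29 SE, adjusted p = 0.011), and the FOXO pair moved apart, with Foxo3 at 2.49, 3.3 and 2.98 scaled TPM at 0h and 6.54, 5.6 and 6.5 at 1h. Foxo3 rose by 1.07 ± 0.16 (SE, log2 scale, adjusted p = 0.01).

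Lipid genes were called higher more often than lower, again in a list made after the values were seen. Of 35 measured, 11 were called higher and 4 lower, with a median of 0.21. Cpt1a, the gate of fatty acids into mitochondria, was at 1.93, 1.03 and 1.91 scaled TPM at 0h and 8.24, 8.28 and 10.3 at 1h (2.43 ± 0.26 SE, adjusted p = 0.00308), and Degs1, which makes ceramide, went from 3.4 ± 0.277 to 11.2 ± 0.63 (1.69 ± 0.12 SE, adjusted p = 0.00095). Insig1, which holds back cholesterol synthesis, fell from 10.8 ± 1.24 to 4.15 ± 0.514 (-1.36 ± 0.15 SE, adjusted p = 0.00359). Of 111 solute carriers, 4 were called higher, among them the copper importer Slc31a1, and 5 lower, with a median of -0.17, which is near the 3.36% and 3.76% of all 8327 genes, and on TPM as deposited 19 were called higher and 1 lower. In another list made after the values were seen, 3 of 4 measured GIMAP GTPases, which support lymphocyte survival, were called lower. Gimap6 fell from 10.3 ± 1.88 to 1.92 ± 0.335 and Gimap4 from 4.59 ± 0.979 to 0.791 ± 0.129. Gimap9, also called lower, lost its call in 12 of 18 alternative settings, and on TPM as deposited 2 of the 4 were called lower.

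Of 29 cyclins and cell cycle kinases and their partners, Ccnd1 was called lower and E2f7 higher, with a median of -0.06, so that the calls were near the shares over all 8327 genes (3.36% higher, 3.76% lower). Ccnd1 (cyclin D1) was at 14.2, 19.5 and 22 scaled TPM at 0h and 1.81, 2 and 3.04 at 1h (-2.98 ± 0.24 SE, adjusted p = 0.00124), and E2f7, a repressor of the E2F family, at 1.2, 1.23 and 1.21 scaled TPM at 0h and 4.94, 3.69 and 2.94 at 1h. E2f7 rose by 1.56 ± 0.22 (SE, log2 scale, adjusted p = 0.00816). None of 10 BTG, TOB and CDK inhibitor genes was called (3 higher on TPM as deposited, 2 with the trend over length and GC content taken out), and Btg1 was at 3.14, 1.98 and 2.81 scaled TPM at 0h and 3.77, 2.08 and 3.25 at 1h (adjusted p = 0.72). Of 12 BCL2 family genes, Bcl2l1 (BCL-XL) and Bcl2l12 were called lower, Bcl2l1 from 10.1 ± 2.33 to 3.16 ± 0.0541 (-1.61 ± 0.18 SE, adjusted p = 0.0038). The 10 genes of RGS and G protein feedback gave no call (4 higher on TPM as deposited).

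Lists of ribosome, respiratory chain and histone genes gave no call, while other genes of growth such as Mtor and Ccnd1 were called lower. None of 36 ribosome biogenesis genes was called, while 32 had a negative log2 fold change and the median was -0.49. On scaled TPM, all values at 1h lay below all those at 0h for 24 of these 36 genes and for 55 of 81 cytosolic ribosomal protein genes. That compares with 22.1% of all 8327 genes, and 0 genes of either list lay wholly above. None of 81 cytosolic ribosomal protein genes (median -0.39), 74 nuclear respiratory chain genes (-0.31), 62 replication-dependent histone genes (-0.31) or 15 mitochondrially encoded genes (0.27) was called. Of 14 housekeeping genes, Tfrc, the transferrin receptor, was called lower, a call lost in 12 of 18 alternative settings, and the median was -0.34. The directions of these medians hold only relative to the bulk: on TPM as deposited they were 0.11, 0.21, 0.29, 0.29, 0.87 and 0.25 in the same order, against 0.52 for all 8327 genes.

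The calls also moved with 2 properties of the transcripts, whose part in the results was not tested. Over 8048 protein-coding genes of the set, the longest annotated transcript had a median of 4506 bases in the 269 called higher, 3228 in the 302 called lower and 3387 in the others, and the gene spans had medians of 40034, 23916 and 23917 bases. From the shortest to the longest quintile of transcripts, the share called higher went from 1.74 to 6.46% and the median log2 fold change from -0.27 to 0.15. From the lowest to the highest quintile of GC content, the share called lower went from 0.994 to 6.58%. Across genes, Spearman's rho of the log2 fold change was 0.28 with transcript length and -0.16 with GC content, where the genes share the 6 libraries and are not independent. With the trend over length and GC content taken out of each library, an alternative added after the data were seen, 292 genes were called higher and 291 lower, of which 244 and 267 were among the 280 and 313, and the medians of the ribosomal protein genes and of the macrophage genes moved to -0.18 and -0.09.

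**Figure D4:**
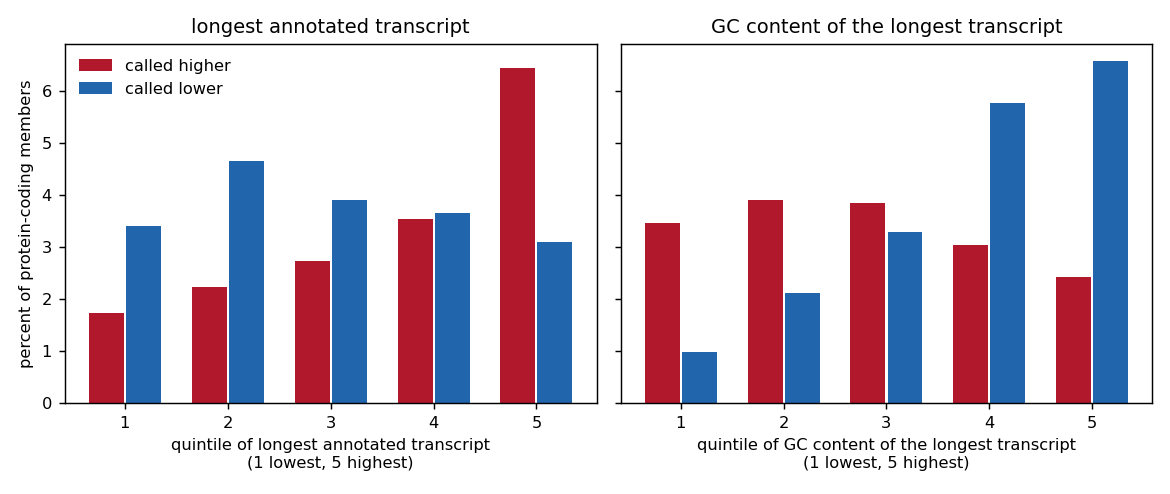
Share of the 8048 protein-coding genes called higher (red) or called lower (blue), in percent, by quintiles of the longest annotated transcript (left) and of its GC content (right), from lowest (1) to highest (5). Calls of higher genes reach 6.46% in the longest quintile, and calls of lower genes reach 6.58% in the quintile with the highest GC content.

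The levels at 12h and 48h place the first hour within the conversion, and since those times share the 0h libraries they are given as levels only. The genes called higher went from a median of 1.41 scaled TPM before induction to 4.34 at 1h, 5.43 at 12h and 5.58 at 48h. Those called lower went from 5.35 to 1.66, 2.38 and 2.61 at these times, while the median of all 8327 genes stayed between 3.16 and 3.28. Several risers were at a small part of their later level. Cybb reached 84.6 ± 8.27 at 12h and 225 ± 5.87 at 48h, Ctsc 209 ± 16.1 at 12h and 540.1 ± 44.3 at 48h, Csf1 16.9 ± 2.28 at 12h and 44 ± 5.27 at 48h and Ccl9 67 ± 3.7 at 12h and 159 ± 18.5 at 48h (mean ± SD, n = 3).

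Other risers were highest at 1h among the 4 times or at 12h. Txnrd1 was at 15.2 ± 1.09 at 12h and 4.67 ± 0.386 at 48h, Gclc at 4.32 ± 0.382 at 12h and 1.88 ± 0.408 at 48h, Socs2 at 4.44 ± 0.591 at 12h and 3.58 ± 0.21 at 48h, Nr4a3 at 0.0698 ± 0.0279 at 12h and 0.244 ± 0.183 at 48h and Gfi1 at 1.96 ± 0.643 at 12h and 0.344 ± 0.0271 at 48h, all below their means at 1h. Gpr84 was at 21.7 ± 0.18 at 12h and 2.12 ± 0.307 at 48h, and Ets1, after its rise, at 3.26 ± 1.15 at 12h and 0.971 ± 0.794 at 48h.

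The genes that fell parted in the same way. Vpreb1 was at 4.57 ± 0.361 at 12h and 1.52 ± 0.379 at 48h, Lef1 at 2.9 ± 0.381 at 12h and 3.24 ± 1.44 at 48h and Bach2 at 0.211 ± 0.2 at 12h and 0.132 ± 0.113 at 48h, below their levels at 1h. Fos was at 7.28 ± 0.632 at 12h and 37.9 ± 5.74 at 48h, Ccnd1 at 7.2 ± 0.793 at 12h and 37 ± 0.833 at 48h, Irf5 at 6.42 ± 0.925 at 12h and 14.8 ± 1.25 at 48h, Irf8 at 12.3 ± 1.06 at 12h and 23.5 ± 7.43 at 48h and Zfp36l2 at 13.3 ± 0.444 at 12h and 34.5 ± 4.22 at 48h, so that the mean at 48h of each lay above its mean at 0h, by less than the SD at 48h for Irf8. Il7r was at 0.00949 ± 0.0164 at 12h and 1.17 ± 0.158 at 48h, and Cd79b at 11.1 ± 0.37 at 12h and 18 ± 0.916 at 48h.

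**Figure D5:**
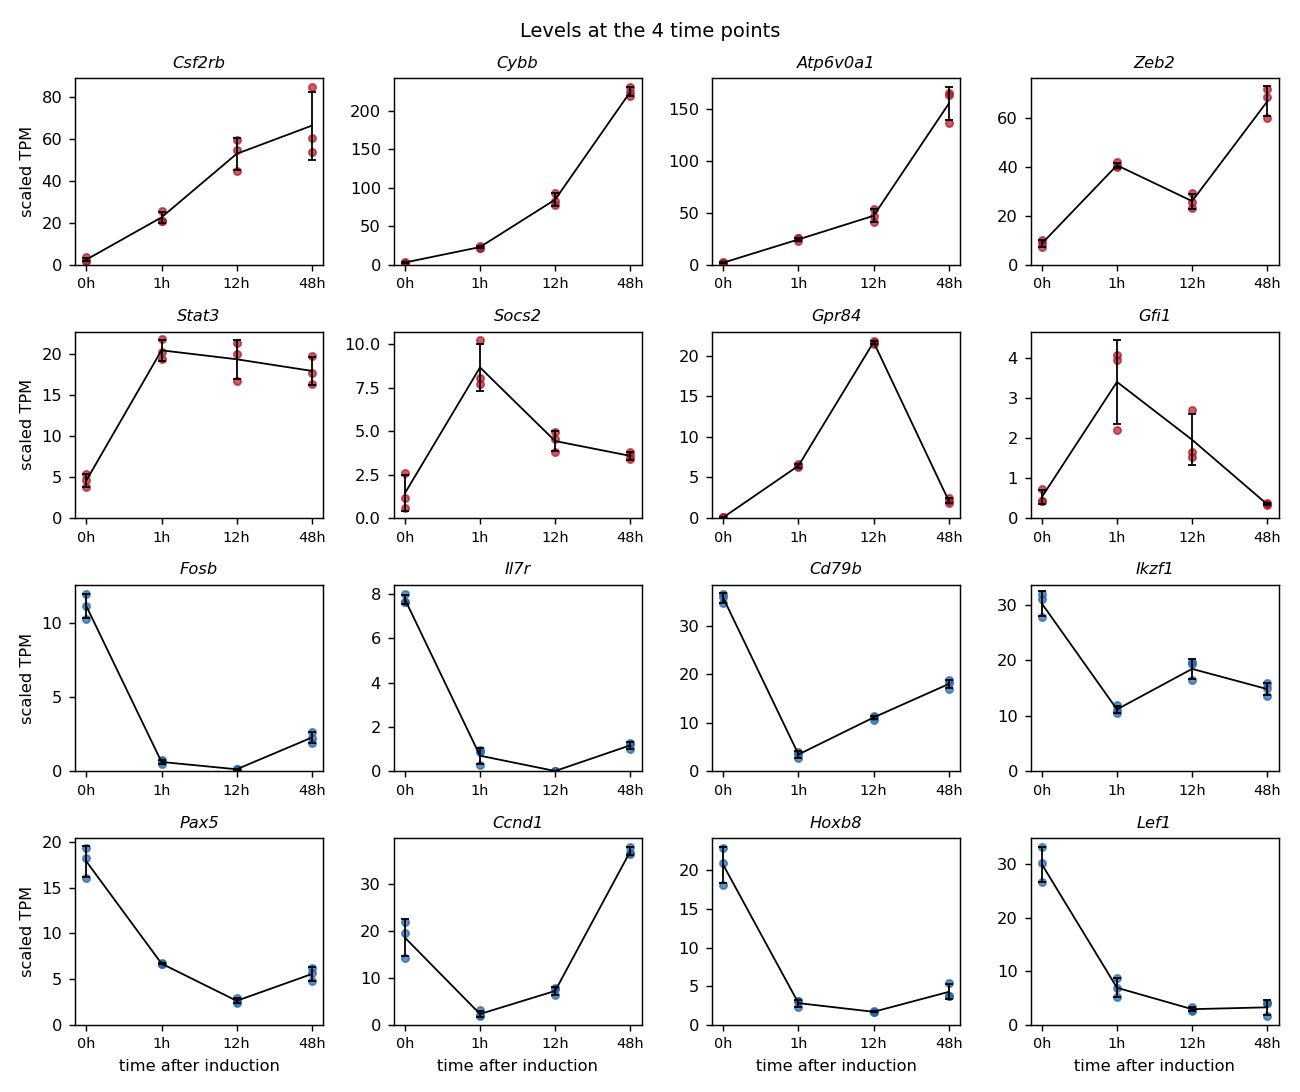
Levels of 8 genes called higher (red) and 8 called lower (blue) at 0h, 1h, 12h and 48h, in scaled TPM on linear axes that differ between panels: points are the 3 libraries of each time, and the line joins the means with SD bars. Cybb climbs from 2.88 to 225, Socs2 is highest at 1h at 8.68, and Ccnd1 drops to 2.28 at 1h and is at 37.0 at 48h.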

How the data were processed

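The RNA levels of C10 cells were analysed from TPM values that the authors deposited as 1 table of 12 libraries, of which the 3 at 0h and the 3 at 1h entered the tests. By the study's methods, ribosomal RNA was depleted before library preparation, technical replicates were merged, reads were trimmed with Trim Galore 0.6.2 and aligned with HISAT2 2.1.0 to mm10, and RSEM gave the TPM. Here, TPM was scaled by median of ratios over 8534 genes above 0 in all 12 libraries and with 1 TPM or more on average. All genes averaging 0.1 TPM or more were fitted as log2(scaled TPM + 0.1) with limma 3.58.1 in R 4.3.3 (eBayes with trend), two-sided. A call needed an adjusted p (Benjamini-Hochberg) under 0.05 together with more than a 2-fold change.

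The genes, lists and tests were chosen with earlier results of these data known. Named genes were the 15 largest non-overlapping changes each way whose symbol is no clone name, up to 4 called members each way of each of 30 gene lists and those the paper names, the 5 most abundant called genes each way, all C/EBP genes, and 16 genes and 9 lists chosen after values were seen. Several genes that the rule names are left out of the text. Genes that the study named on these samples are no independent evidence. Groups follow the sample titles. Gene length and GC content came from GENCODE M21, promoter windows from RefSeq (GRCm38.p6). Contact lists of other assays were not used here.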

Additional observations from a re-analysis of the deposited data

How the results depend on the processing

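Numbers of genes called higher and lower moved with the scale, the pseudocount, the thresholds and the libraries kept. On TPM as deposited they were 1294 and 121, with a pseudocount of 1 in place of 0.1 they were 167 and 200, past a log2 fold change of 2 they were 67 and 62, and with the adjusted p alone they were 469 and 644. The other scales, filters, models and the pseudocount of 0.01, and the removal of the trend over length and GC content gave counts within 1.5 times the counts of 280 and 313. Leaving out 1 library at a time gave 150 to 242 genes higher and 179 to 260 lower. The higher count moved by over 1.5 times without 1h replicate 1 (152), 2 (150) or 3 (169), and the lower count without 0h replicate 2 (191) or 3 (207) and without 1h replicate 1 (195) or 2 (179). Of the genes called, 146 to 216 and 175 to 232 were among those called with all 6 libraries. With both libraries numbered 3 left out, a setting added after the data were seen because these 2 list more genes above 0, limma called 0 genes higher and 0 lower (lowest adjusted p 0.0679), while 371 and 398 had an unadjusted p under 0.05 and a fold change beyond 2. No named gene with a call changed sign in any setting. Among the other named genes of the set, the log2 fold change turned on TPM as deposited for Cd79a (-0.53 to 0.07), Cebpz (-0.14 to 0.45) and Ddit3 (-0.11 to 0.48). Ddit3 also turned in 3 other settings, and Btg1 turned without 0h replicate 2. Of the 142 named genes called, 81 kept their call in all 18 settings with at least 5 libraries and these thresholds, and the calls of Egr2, Gimap9, Slc39a10 and Tfrc were lost in 12 of 18. Among the others, Gclm lost its call in 9, Clcf1 and Osm in 8, Erg in 7, Bach2, C3 and Id3 in 6 and Dclre1c and G6pdx in 5. The replicate block gave 275 higher (240 shared) and 264 lower (258 shared). Deviations of libraries with the same number correlated at 0.119, 0.0874 and 0.394, over 0.1 in 2 of 3 pairs and highest for the libraries numbered 3. The sample descriptions number the libraries of replicate 3 after all those of replicates 1 and 2, and whether they were prepared apart is not stated. No label ties a number to a shared culture, so the fit without the block was kept. Each 0h library correlated best with the 1h library of its own number, a hint from the data only, and 1h replicate 2 correlated about equally with 0h replicates 1 and 2. Where nothing else is stated, the cause of these shifts was not tested. TPM carries no depth and the depth in the paper's supplement was not used, so genes near 1 TPM are the least certain.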

Other observations

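Several inflammatory genes that the level rule left out were called higher in the same fit, and they were chosen after their values were seen. These risers passed the fit's filter of 0.1 TPM on average only through their levels at 1h. Their adjusted p-values are therefore no independent support for a rise. Cd14, a coreceptor for bacterial lipopolysaccharide, is listed at 0 in the 3 libraries at 0h and was at 1.44, 1.07 and 1.37 scaled TPM at 1h (adjusted p = 0.00114). Il1b, which encodes the cytokine interleukin-1β, is listed at 0 in the libraries at 0h and was at 0.893, 0.996 and 0.999 at 1h (adjusted p = 0.00156), and the transcription factor gene Nfil3, listed at 0 likewise, was at 0.718, 0.719 and 0.628 (adjusted p = 0.0031). All 3 genes were thus above 0 in each library at 1h and listed at 0 in each at 0h, where equal values of 0 show no spread. Ptgs2, the inducible cyclooxygenase, was at 0, 0.0314 and 0.0229 scaled TPM at 0h and 0.938, 1.26 and 0.863 at 1h (adjusted p = 0.00233), Fosl2, a FOS family member, at 0.0188, 0 and 0.0229 scaled TPM at 0h and 0.583, 1.18 and 0.787 at 1h (adjusted p = 0.00483) and the chemokine gene Ccl2 at 0, 0 and 0.0801 scaled TPM at 0h and 0.602, 0.574 and 0.674 at 1h (adjusted p = 0.0102). Fosl2 thus rose while Fos and Fosb fell, and Ptgs2 rose while Ptgs1 fell. Cd14 was later at 42.7 ± 3.69 at 12h and 69.3 ± 13.6 at 48h, Il1b at 22.6 ± 3.7 at 12h and 50.4 ± 4.64 at 48h and Ptgs2 at 4.48 ± 0.524 at 12h and 9.67 ± 3.83 at 48h. In the other direction, Bcl6, a repressor of germinal centre B cells, was at 0.914, 0.752 and 0.962 scaled TPM at 0h and 0.136, 0.237 and 0.106 at 1h (adjusted p = 0.0134), and Nr1d1, a clock repressor, at 0.613, 0.711 and 0.778 scaled TPM at 0h and 0.168, 0.0923 and 0.129 at 1h (adjusted p = 0.0146). All adjusted p-values are from limma over the 15988 genes fitted.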
